A study of Oncorhynchus mykiss with 18 samples.

Results

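Whole alevins of the rainbow trout (Oncorhynchus mykiss) exposed to 1.13 ng/L of 17α-ethinylestradiol (EE2) were compared with alevins exposed to 6.22 ng/L. The comparison took every library the labels place at those measured concentrations, 3 at each, so 6 of the 18 libraries of the series. EE2 is the synthetic estrogen of oral contraceptives, and alevins are hatched fish that still feed on their yolk sac. Both groups spent 96 hours from hatch in 9-litre flow-through tanks at 14 °C and were taken whole at 4 days post-hatch, and each library holds the RNA of a pool of 3 alevins. The 3 solvent libraries (0.01% DMSO, no EE2, same age and temperature) are given beside them as a description. They and the remaining 9 libraries (1.57, 16.3 and 55.1 ng/L) also entered the filter on low counts, the scaling, the principal components and the estimate of spread. Whether the 3 pools of a group came from different tanks is not in the labels, and the p-values therefore reflect only how much pools vary, which may be technical. In whole-body pools, fewer cells of a type and less RNA per cell cannot be told apart.

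Estrogens act in fish mainly through nuclear estrogen receptors, which bind DNA and switch on target genes. In females of egg-laying species the liver answers estrogen by making vitellogenins, the precursors of yolk, and in salmonids also proteins of the egg envelope, and it raises the receptor gene esr1 itself. Young fish and males do not normally make these proteins, which is why their transcripts serve as markers of estrogen exposure. Other tissues of the alevin, such as bone, muscle and brain, also carry estrogen receptors.

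Differences are log2 fold changes of 1.13 minus 6.22 ng/L, so a positive value is higher at the lower concentration, and levels are counts scaled to library size (CPM), given by library or as mean ± SD of 3 libraries. Unless another fit is named, every adjusted p is a Benjamini-Hochberg value of edgeR's quasi-likelihood test over all 46999 features tested. Fits that left out libraries were filtered anew and adjusted over their own features, for example 43536 with the 6 libraries alone. The threshold was 0.05 throughout. A feature is the sum of a gene's transcripts or a single transcript that no gene name could be given to. Of the 46999, 7605 (16.2%) passed the threshold: 3999 (8.51%) were higher and 3606 (7.67%) lower at 1.13 ng/L, so that 52.6% of the calls were higher. After correction of every library for its dependence on transcript length, 42.3% of 7871 calls were higher. Among calls of at least 2-fold, 1409 were higher and 334 lower at 1.13 ng/L. The median difference of all features was 0.0148, and 13886 had an unadjusted p under 0.05. The 3 libraries at 1.13 ng/L lay all above those at 6.22 ng/L for 8646 features and all below for 7518.

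Libraries at 1.13 ng/L held 26160497 to 28166132 estimated counts, those at 6.22 ng/L 15365201 to 16164585 and those of solvent 12658946 to 17076432. On the first principal component, with 14.2% of the variance, the libraries at 1.13 ng/L scored 72.7 to 103.5 and those at 6.22 ng/L -106.8 to -38.1. Solvent scored -41.8 to -15 and 1.57 ng/L 70.7 to 76.4. Libraries at 16.3 ng/L scored -10.4 to 11.9 and those at 55.1 ng/L -86.2 to -49.1. The component thus did not follow the order of concentrations. Replicate C of 6.22 ng/L stood apart at -106.8, against -38.1 for A and -53 for B. Without it 3811 features passed. Without replicates A and B of 1.13 ng/L, 4789 and 4013 passed. In a fit to the 6 libraries alone, 3797 passed. Thinning the counts of 1.13 ng/L to the depth of 6.22 ng/L left 7257 calls. Marker genes of liver (tfa), skeletal muscle (ckmb, myl1), red blood cells (alas2), epidermis (krt5), bone and cartilage (sparc, col10a1a), lens (cryba1a), photoreceptors (rho) and lymphocytes (cd3e) were measured in every library.

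An egg envelope gene, a vitellogenin gene and the main estrogen receptor gene were all far lower at 1.13 than at 6.22 ng/L. For zp2.3, which encodes a zona pellucida protein of the egg envelope, the values were 1.87, 1.86 and 0.484 CPM in the A, B and C libraries of 1.13 ng/L, against 227.4, 156.1 and 342.5 CPM in those of 6.22 ng/L. Solvent held 0, 0.0717 and 0.0591 CPM. Every library of 6.22 ng/L was above every library of 1.13 ng/L, and replicate C of 1.13 ng/L was the lowest of its group. The log2 difference of zp2.3 was -7.42 (SE 0.42, adjusted p = 2.9e-07). In reads, 126 at 1.13 ng/L stood against 10680 at 6.22 ng/L, a ratio per library total of 146.6 (95% counting interval 123.0 to 176.1).

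The vitellogenin gene vtg3, for a yolk precursor, had 0, 0.163 and 0.0346 CPM at 1.13 ng/L and 0.0687, 0.0717 and 0 CPM in solvent. Replicate B of 1.13 ng/L was above every solvent library, and the other libraries of 1.13 ng/L were not. At 6.22 ng/L it had 7.81, 7.66 and 12.7 CPM. Over the groups this was 6 reads against 417, a ratio of 120.2 with a counting interval of 54.6 to 328.9. The groups did not overlap, and the log2 difference was -7.00 (SE 0.50, adjusted p = 2.36e-06). Since so few reads lie at 1.13 ng/L, leaving out replicate B of that group moved the difference of vtg3 to -8.66. The other 2 members of the list of egg proteins were zp3d.1, another zona pellucida gene, at 1.22 ± 0.127 and 1.57 ± 0.383 CPM with overlapping groups (-0.36, adjusted p = 0.399), and chga. The last is chromogranin A of neuroendocrine granules, which entered by the shape of its symbol and is no egg protein. It was lower at 1.13 ng/L (14.8 ± 0.464 against 27.6 ± 3.76 CPM, -0.90, SE 0.12, adjusted p = 0.00045).

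Of the 4 estrogen receptor genes measured, 1 passed the threshold. The nuclear receptor gene esr1 had 8.11, 5.93 and 6.09 CPM at 1.13 ng/L and 25.9, 17.3 and 29.7 CPM at 6.22 ng/L. Solvent libraries held 3.16, 2.15 and 3.19 CPM, so the 3 groups stood in the order of the concentrations without overlap. The log2 difference of esr1 was -1.85 (SE 0.22, adjusted p = 0.000155). The beta-type receptor gene erb2 had 3.31 ± 0.169 CPM at 1.13 ng/L and 4.00 ± 0.212 at 6.22 ng/L (-0.27, SE 0.17, adjusted p = 0.323). The second beta-type gene esr2a had 1.18 ± 0.235 and 1.14 ± 0.182 CPM (0.05, SE 0.41, adjusted p = 0.959), and its sign turned when the A (-0.04) or C (-0.03) library of 1.13 ng/L or the B library of 6.22 ng/L (-0.08) was dropped. The membrane receptor gene gper1 had 0.808 ± 0.0829 and 0.998 ± 0.0654 CPM (-0.30, SE 0.38, adjusted p = 0.659). These low levels rest on 45 to 295 reads per group, so differences much smaller than that of esr1 were not detectable at this depth.

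**Figure D1:**
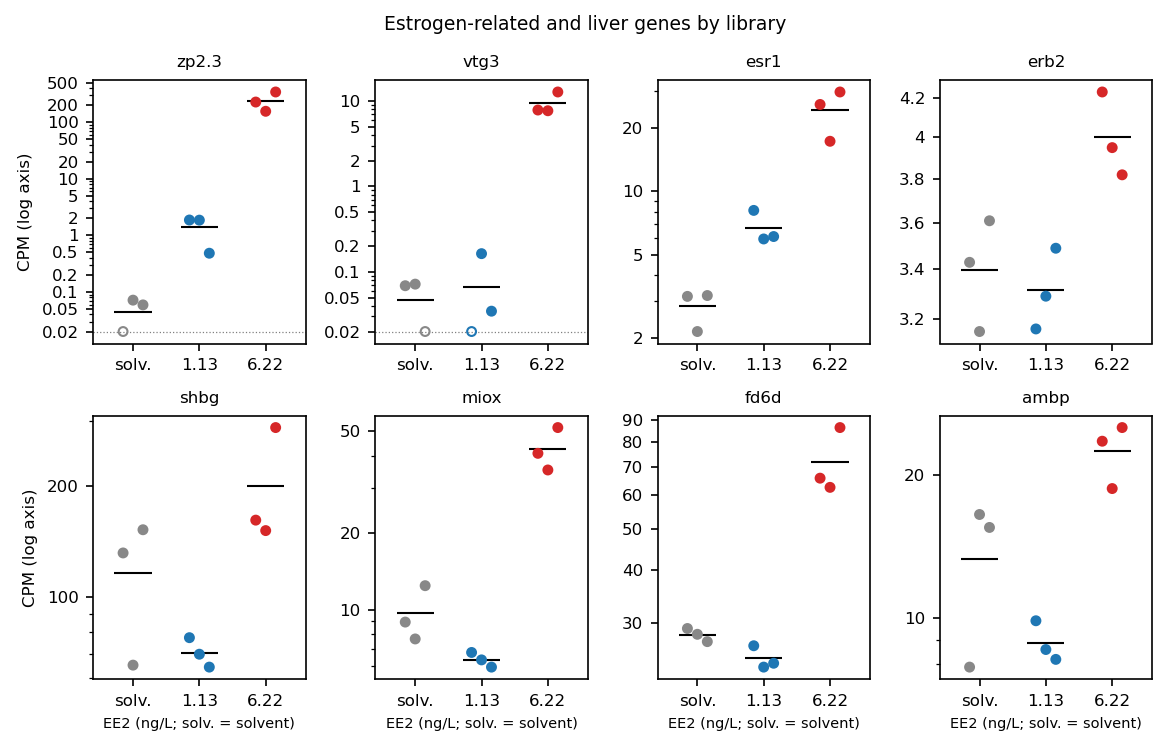
CPM on a log axis (each panel has its own scale) of 8 genes in every library of solvent, 1.13 and 6.22 ng/L EE2; points are libraries A, B and C, bars are means, and open points on the dotted line had 0 reads. At 6.22 ng/L zp2.3 lies between 156.1 and 342.5 CPM and at 1.13 ng/L below 2, whereas esr1 runs in 3 separate steps and shbg, miox, fd6d and ambp at 1.13 ng/L lie at or below most solvent libraries.

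The genes miox, fd6d and shbg were also lower at 1.13 ng/L. The first encodes the oxygenase that begins the breakdown of myo-inositol. It had 6.79, 6.35 and 5.95 CPM at 1.13 ng/L and 40.9, 35.2 and 51.6 CPM at 6.22 ng/L. The solvent libraries (8.93, 7.67 and 12.4 CPM) were closer to 1.13 ng/L, and the log2 difference was -2.74 (SE 0.30, adjusted p = 8.01e-05). The fatty acid desaturase gene fd6d had 24.8 ± 1.54 against 71.7 ± 13.1 CPM, with 28.1 CPM in solvent (-1.53, SE 0.13, adjusted p = 1.1e-05). For shbg, whose product carries sex steroids in plasma, 77.4, 69.8 and 64.4 CPM at 1.13 ng/L stood against 161.3, 151.1 and 287.6 CPM at 6.22 ng/L. Solvent spread over both groups (131.4, 65.2 and 151.9 CPM), and the difference of shbg was -1.5 (SE 0.29, adjusted p = 0.00394).

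Further genes with a symbol and a large difference in this direction were low in level. The plasma protein gene ambp, for the precursor of alpha-1-microglobulin, had 8.89 ± 0.879 against 22.4 ± 3.31 CPM (-1.33, adjusted p = 0.00608). The chloride channel subunit gene bsnd had 1.14 ± 0.265 against 3.60 ± 0.398 CPM (-1.65, adjusted p = 0.00336), and the tight junction gene cldn18 1.38 ± 0.194 against 3.57 ± 0.545 CPM (-1.36, adjusted p = 0.00315). The antimicrobial peptide gene defb3 differed by -1.41, the cytochrome P450 gene cyp2k4 by -1.24 and kt3k by -1.64, all called and without overlap. In the steroid hormone list, 2 of 8 measured genes were lower at 1.13 ng/L, shbg and the transcription factor gene nr5a1a (-0.54, adjusted p = 0.02), and 0 were higher. Over all features 16.2% were called. The call of nr5a1a was lost when the A (adjusted p = 0.0861) or B (0.0592) library of 1.13 ng/L, or the B (0.0602) or C (0.0593) library of 6.22 ng/L, was dropped.

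Beside these, 11 features were called with a difference beyond 4 on the log2 scale, no overlap and at least 20 CPM at 6.22 ng/L, a rule set after their values were seen. Apart from zp2.3, the reference table gives them no name beyond an identifier. The most abundant, XM_021599796.1, had 2.78, 2.12 and 0.0692 CPM at 1.13 ng/L and 816.9, 795.3 and 1090.8 CPM at 6.22 ng/L. Its ratio was 466.2 (counting interval 396.8 to 552.5), with 0 reads in solvent. XM_021599798.1 had 0.651 ± 0.551 against 634.8 ± 131.3 CPM, a ratio of 828.3 (641.0 to 1088.1), also with 0 reads in solvent. Leaving out replicate B of 1.13 ng/L moved its log2 difference from -9.90 to -10.70. In TPM, which corrects for length, XM_021599798.1 reached 712.2 at 6.22 ng/L, LOC100135907 260.1, zp2.3 176.1, esr1 9.79 and vtg3 3.07.

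The gene LOC100135906 had 0.272, 0.293 and 0.208 CPM at 1.13 ng/L and 171.6, 135.5 and 232.1 CPM at 6.22 ng/L, a ratio of 599.8 (400.0 to 943.4). LOC100135907 had 0.71 ± 0.459 against 261.8 ± 100.0 CPM, a ratio of 312.4 (244.5 to 406.5). XM_021598447.1 and XM_021594647.1 were at 138.6 ± 37.9 and 64.8 ± 35.7 CPM at 6.22 ng/L, with 18 and 12 reads over all of 1.13 ng/L and 0 in solvent. With the B library of 1.13 ng/L dropped, which held the most of these reads, their log2 differences went from -9.38 to -11.75 and from -8.85 to -9.76. XM_021598448.1 had 0 reads at 1.13 ng/L and in solvent and 59.3 ± 15.5 CPM at 6.22 ng/L, at least 1518.5-fold higher if the group at 0 is set to 3 reads in all. XM_021598449.1, which is not among the 11 and was likewise at 0 in both, was at least 177.0-fold higher. XM_021576769.1 was instead present in solvent (2.37 CPM) and at 1.13 ng/L (1.74 ± 0.622 CPM), against 77.2 ± 23.1 CPM at 6.22 ng/L (-5.47, SE 0.32, adjusted p = 4.27e-07).

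The last 2 of the 11 did not have this shape. XM_021583435.1 had 11.7 CPM in solvent and 21.7 ± 7.8 at 6.22 ng/L, and of the libraries at 1.13 ng/L only B held reads (1.76 CPM). Without that library its difference moved from -5.16 to -11.77. XM_021617028.1 had 153.5, 2.7 and 162.2 CPM at 6.22 ng/L, so replicate B was hardly above the highest library of 1.13 ng/L (2.34 CPM), and solvent held 86.1 CPM. Its call (-6.36, adjusted p = 0.0196) was lost when the A (adjusted p = 0.0781), B (0.0627) or C (0.0618) library of 1.13 ng/L or the C library of 6.22 ng/L (0.0566) was dropped. Over all features tested, 500 had 0 reads at 1.13 ng/L and 32 of those were called, a smaller share than the 16.2% of all features. Each of the 32 was a single transcript, for which estimated counts may be split with near-identical sequences.

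In the other direction, 8 features passed the same rule, with at least 20 CPM at 1.13 ng/L, and all but 1 of them had over 1 CPM in solvent. XM_021601385.1 had 614.7, 560.3 and 569.9 CPM at 1.13 ng/L and 20.2, 11.1 and 2.02 CPM at 6.22 ng/L. The solvent libraries (28.3, 25.3 and 25.2 CPM) lay just above those of 6.22 ng/L. The log2 difference was 5.70 (SE 0.75, adjusted p = 0.000329), or 6.44 without replicate A of 6.22 ng/L. XM_021603014.1 had 533.2 ± 74.7 against 5.78 ± 3.21 CPM, with 29.7 CPM in solvent (6.52, adjusted p = 0.000985). Its neighbour in accession, XM_021603013.1, had 129.4, 105.6 and 117.9 CPM at 1.13 ng/L, 0 reads at 6.22 ng/L and 3.94 CPM in solvent, so it was at least 2016.4-fold higher with 3 reads in all as the floor. LOC110529381 had 151.6, 191.0 and 68.7 CPM against 4.70, 0.753 and 0.144 CPM (6.18, adjusted p = 0.000404, or 8.17 without replicate A of 6.22 ng/L).

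LOC110523893 had 79.5 ± 6.73 against 4.91 ± 3.03 CPM (4.01, SE 0.35, adjusted p = 1.52e-05), and XM_021611526.1 and XM_021607512.1 differed by 4.42 and 4.66. The call of XM_021585628.1 (4.62, adjusted p = 0.0188) was lost when the B library of 1.13 ng/L (0.0581), or the B (0.0648) or C (0.0776) library of 6.22 ng/L, was dropped. LOC118936301 had 9.90 ± 2.22 CPM at 1.13 ng/L, 5.97 CPM in solvent and 0 reads at 6.22 ng/L, at least 170.6-fold higher. Features with 0 reads at 6.22 ng/L, the group with the lower library totals, numbered 916. Of these 61 were called, a smaller share than the 16.2% over all features, and 50 of the 61 were single transcripts. Among them XM_021620538.1 also had 0 reads in solvent, against 10.6, 18.7 and 10.7 CPM at 1.13 ng/L (at least 230.3-fold higher).

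**Figure D2:**
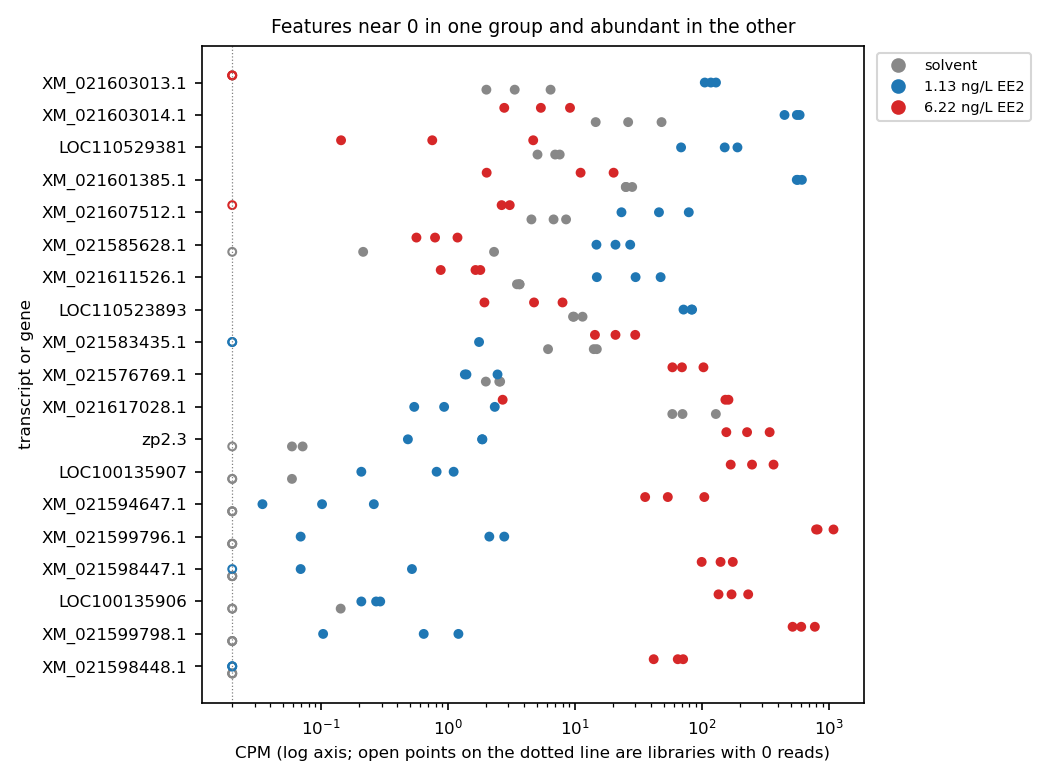
CPM on a log axis of the 19 called features with a log2 difference beyond 4 and at least 20 CPM in the higher group; points are single libraries of solvent (grey), 1.13 (blue) and 6.22 ng/L EE2 (red), and open points had 0 reads. From XM_021598448.1 up to zp2.3, solvent and 1.13 ng/L lie at the left with 6.22 ng/L far to the right, and from LOC110523893 upward 1.13 ng/L lies to the right with solvent mostly near 6.22 ng/L.

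Collagen genes and other genes of the skeleton's matrix were higher at 1.13 ng/L. Collagens include the fibre proteins of bone, skin and cartilage, and of 14 measured genes 12 were higher, 0 lower and 2 not past the threshold. Over all features 8.51% were higher and 7.67% lower. The 14 also hold col4a3, col4a4, col8a2, col17a1a and col17a1b, which are not fibre collagens of the skeleton. The median was 1.28, against 0.0148 over all features, and the values ran from 0.71 to 2.21. The type I collagen gene col1a1, of bone and skin, had 1505.6, 1683.4 and 1055.4 CPM at 1.13 ng/L and 496.8, 377.2 and 379.6 CPM at 6.22 ng/L. All libraries of 1.13 ng/L exceeded those of 6.22 ng/L and of solvent (285.7, 325.4 and 459.6 CPM), and the log2 difference was 1.76 (SE 0.25, adjusted p = 0.000545). The gene col10a1a, of hypertrophic cartilage and forming bone, had 171.0 ± 33.7 against 52.1 ± 7.39 CPM and 86.0 CPM in solvent (1.71, SE 0.16, adjusted p = 2.94e-05).

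The fibril gene col5a2a differed by 0.96 (SE 0.09, adjusted p = 3.25e-05) and the cartilage gene col27a1b by 0.81, at 11.6 ± 0.507 against 6.61 ± 0.0195 CPM. The largest difference of a collagen, that of col21a1 (2.21, adjusted p = 0.0356), was lost without any 1 of the 6 libraries, with adjusted p of 0.056 to 0.116. Collagen transcripts are long (median 5333 bases), and longer features were more often higher, as given further on. After the length correction, 12 of the 14 were still higher, with a median of 1.16. Without replicate C of 6.22 ng/L, 10 were higher.

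Of 15 genes of cartilage and bone that are not collagens, 9 were higher, 0 lower and 6 not past the threshold, with a median of 0.94 and every value above 0. Among all features 8.51% were higher and 7.67% lower. The gene bglapl, of the osteocalcin family of bone, had 5.19, 6.64 and 4.39 CPM against 0.463, 1.00 and 0.648 CPM, with 1.80 CPM in solvent (2.93, SE 0.34, adjusted p = 0.000125). The gene entpd5a, which mineralisation of bone needs in zebrafish, had 2.27 ± 0.359 against 0.582 ± 0.0741 CPM (1.96, adjusted p = 0.00101). The proteoglycan gene acanb, for aggrecan of cartilage, differed by 1.30 and spp1, for osteopontin, by 1.08 (adjusted p of 0.00191 and 0.00174). The transcription factor gene sp7, of bone-forming cells, and the cartilage matrix genes chad and cnmd were among the 9. The cartilage regulator gene sox9 (0.13) and sparc (0.46) did not pass. Leaving out 1 library at a time gave 7 to 11 calls, all higher.

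Several lysosomal genes of lipid handling and of enzymes were higher at 1.13 ng/L, and some of the proton pump were lower. Of 10 genes in the list of lysosomal lipid handling 6 were higher and 0 lower (median 0.67), against 8.51% and 7.67% of all features. The genes arsa (-0.40) and scarb2a (-0.09) lay below 0 and did not pass. The gene npc1, whose product carries cholesterol out of the lysosome, had 121.3, 115.0 and 114.0 CPM at 1.13 ng/L and 38, 38.3 and 31.4 CPM at 6.22 ng/L. The groups were tight and wide apart, solvent held 46.9 CPM, and the difference was 1.70 (SE 0.09, adjusted p = 2.9e-07). The lysosomal phospholipase gene pla2g15 had 226.8, 222.7 and 262.4 CPM against 59.3, 37.2 and 22.1 CPM (2.58, SE 0.28, adjusted p = 6.94e-05). The ganglioside activator gene gm2a differed by 1.38 (SE 0.11, adjusted p = 5.91e-06). The list also holds apoe and lpl, whose products act outside the lysosome. The gene apoe, for a lipoprotein that carries cholesterol between cells, had 92.4 ± 4.76 against 21.0 ± 5.39 CPM (2.14, SE 0.23), and lpl (0.36) did not pass.

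Of 18 genes of lysosomal proteases, membrane and proton pump, 8 were higher and 3 lower, with a median of 0.42. Over all features 8.51% were higher and 7.67% lower. The higher ones included the peptidase genes ctsc (58.9 ± 2.53 against 26.6 ± 1.92 CPM, 1.15, adjusted p = 9.2e-05), ctsa (1.00, adjusted p = 1.17e-05) and ctsz (0.72, adjusted p = 0.00177). All 3 lower ones, atp6v0ca (-0.53, adjusted p = 0.000254), atp6v1ba and atp6v0b, encode subunits of the pump that acidifies the lysosome and other vesicles. Without replicate C of 6.22 ng/L the counts were 6 and 2.

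Liver genes split. Of 20 measured plasma protein genes 3 were higher and 3 lower at 1.13 ng/L (median -0.11). Of 15 liver enzyme genes 4 were higher and 1, miox, lower (median 0.06), so neither list moved one way. The shares over all features were 8.51% higher and 7.67% lower. Leaving out 1 library at a time gave 2 to 4 higher and 1 to 3 lower plasma protein genes, and 2 to 4 higher and 1 to 2 lower enzyme genes. The antimicrobial peptide gene leap2 had 25.8, 20.6 and 28.3 CPM against 5.42, 5.77 and 5.76 CPM (2.14, SE 0.20, adjusted p = 2.25e-05). The transferrin gene tfa, for the iron carrier of plasma, had 867.4 ± 186.1 against 378.9 ± 76.8 CPM (1.19, adjusted p = 0.00132). Lower beside ambp were the retinol carrier gene rbp4l and proca, of the clotting regulator protein C. The related transferrin gene tf (-0.19) and retinol carrier gene rbp4 (-0.19) did not pass. The call of proca (-0.87, adjusted p = 0.014) was lost when the C library of 1.13 ng/L (0.0511) or of 6.22 ng/L (0.0852) was dropped, and in the latter fit 1 plasma protein gene was lower. Of the enzymes, glud1, for glutamate dehydrogenase, differed by 1.75 (adjusted p = 0.00471) and gnmt, which methylates glycine, by 1.13 (adjusted p = 0.000716). For bhmt, of a methyltransferase of betaine, the groups overlapped (0.91, adjusted p = 0.0133). Its call was lost when the A (0.057) or B (0.0666) library of 1.13 ng/L or of 6.22 ng/L (0.0549 and 0.0518) was dropped.

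Other genes with a symbol had large differences upward. The gene leg1, for a secreted protein needed in zebrafish liver growth, had 334.1, 311.1 and 319.6 CPM at 1.13 ng/L and 73.3, 37.7 and 48.4 CPM at 6.22 ng/L (2.6, SE 0.30, adjusted p = 0.000135). The apolipoprotein gene apoa-i-2, of high density lipoprotein, had 763.5 ± 56.2 against 132.7 ± 65.7 CPM (2.52, SE 0.34, adjusted p = 0.000406). The urate breakdown gene urahb had 9.23 ± 1.75 against 1.37 ± 0.313 CPM (2.75), and asb11, of the ubiquitin ligase adaptors, 5.34 ± 1.03 against 0.864 ± 0.288 CPM (2.62). The kinase gene styk1b differed by 2.54 and zgc:113279 by 2.24. Of the lipid transport list 3 of 16 genes were higher and 1 lower (median 0.22), against 8.51% and 7.67% of all features. Leaving out 1 library at a time gave 1 to 3 higher and 0 to 1 lower. In the fit to the 6 libraries alone 1 of 15 was higher and 0 lower, with a median of 0.03. The calls of apoa2, pparab and fabp7b were each lost in 3 to 5 of the fits without 1 library, with adjusted p up to 0.132, 0.165 and 0.0834. The call of apoba, for the structural protein of plasma lipoproteins, held in all of them (100.9 ± 9.03 against 48.0 ± 5.23 CPM, 1.07, adjusted p = 0.00402).

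The largest difference of a gene with a symbol, that of sh3d19 (4.28, adjusted p = 0.049), is not firm. It had 12.3, 10.5 and 9.86 CPM against 1.65, 0 and 0 CPM, and in solvent only replicate C held reads (9.93 CPM). Its call was lost in every fit that left out 1 library except those without a solvent library or without replicate A of 6.22 ng/L, with adjusted p up to 0.159, and without that last library the difference was 10.83. The lymphocyte recombinase gene rag1 (3.37 ± 1.11 against 0.716 ± 0.626 CPM, 2.22, adjusted p = 0.028) lost its call when the A (0.0962) or B (0.0544) library of 1.13 ng/L, or the B (0.0721) or C (0.0537) library of 6.22 ng/L, was dropped. Dropping the A library of 6.22 ng/L gave a difference of 2.98.

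**Figure D3:**
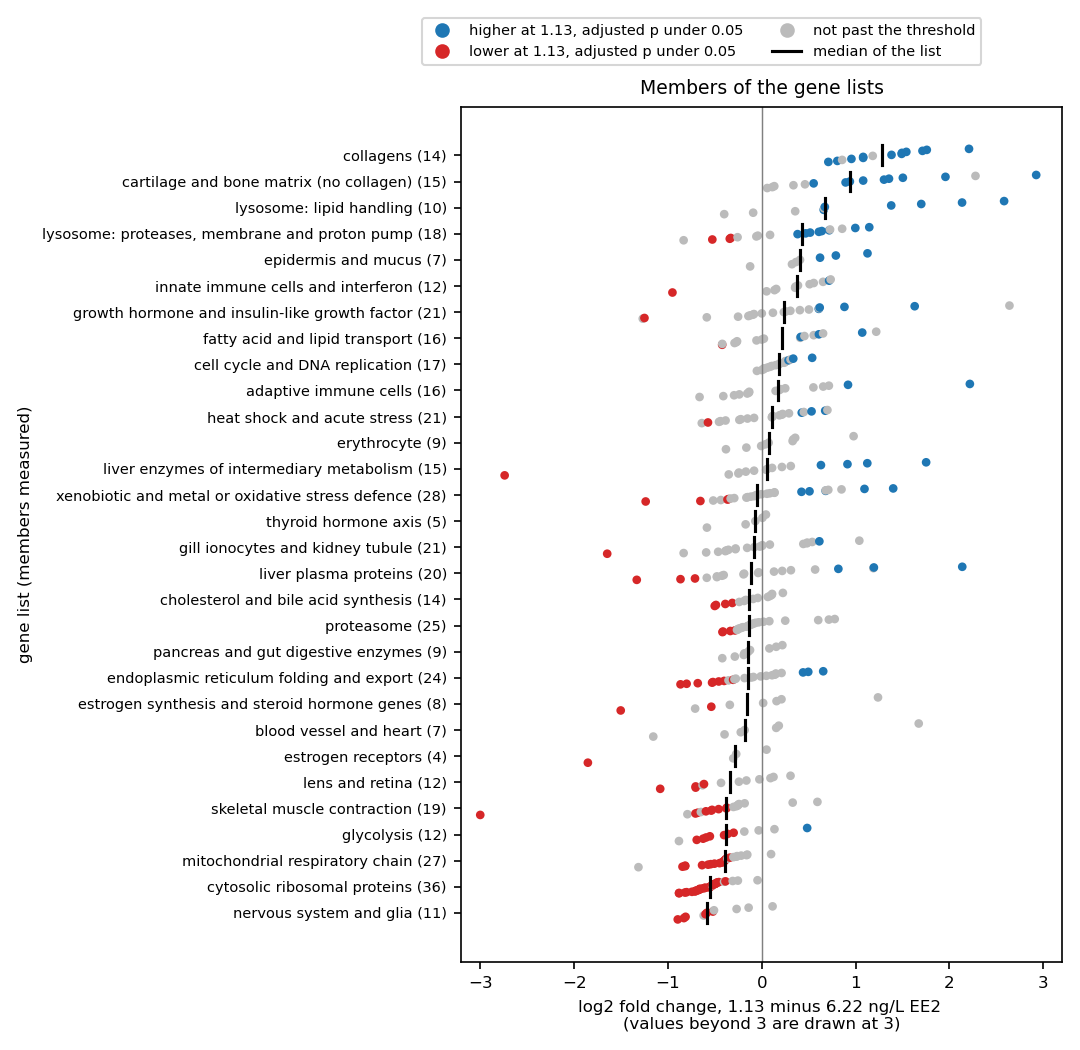
Log2 fold change (1.13 minus 6.22 ng/L EE2) of each measured member of 30 gene lists; blue and red points passed the adjusted p threshold, grey points did not, and bars are list medians. Collagens (median 1.28), bone matrix and lysosomal lipid genes lie at the top, and ribosomal protein (-0.55), respiratory chain and nervous system genes at the bottom; the egg protein list is left out of the drawing.

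Genes of cytosolic ribosomal proteins and of the respiratory chain were lower at 1.13 ng/L, each called one by less than 2-fold. Of 36 measured genes of cytosolic ribosomal proteins 31 were lower, 0 higher and 5 not past the threshold, where 7.67% and 8.51% of all features were lower and higher. The median was -0.55, and the values ran from -0.88 to -0.04, the last that of rpl7l1. The gene rpl38, of the large subunit, had 128.3, 114.2 and 130.3 CPM at 1.13 ng/L and 232.9, 196.5 and 257.5 CPM at 6.22 ng/L. Solvent lay between them (179.8, 174.6 and 194.8 CPM), and the difference was -0.88 (SE 0.13, adjusted p = 0.000597). The small subunit gene rps28 differed by -0.88, the stalk gene rplp1 by -0.70 (515.2 ± 9.23 against 838.0 ± 114.6 CPM) and rpl36a by -0.66. In the fit to the 6 libraries alone 19 of the 36 were lower, and without replicate C of 6.22 ng/L 16 were.

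Of 27 genes of the mitochondrial respiratory chain 17 were lower, 0 higher and 10 not past the threshold, with a median of -0.40 and values from -1.31 to 0.10. Among all features 7.67% were lower and 8.51% higher. The complex I gene ndufa1 had 28.8, 25.3 and 29.1 CPM against 46.0, 47.1 and 53.4 CPM (-0.82, SE 0.10, adjusted p = 0.000186). A second complex I gene, ndufb5, had 756.8 ± 49.4 against 1359.1 ± 315.0 CPM (-0.84, SE 0.16), and the ATP synthase genes atp5mpl and atp5mc3b differed by -0.82 and -0.40. Without replicate C of 6.22 ng/L 9 of the 27 were lower. These transcripts are short, with median lengths of 736 bases for ribosomal proteins and 716 for the respiratory chain. After the length correction, 30 of 36 and 17 of 27 were lower, with medians of -0.49 and -0.32.

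Of 12 genes of glycolysis 7 were lower and 1, the hexokinase gene hk2, higher (median -0.38). Of 19 genes of muscle contraction 9 were lower and 0 higher (median -0.38), with pvalb1, a parvalbumin gene, at -4.50 although its groups overlapped. Over all features 7.67% were lower and 8.51% higher. Without replicate C of 6.22 ng/L, 1 glycolysis gene and 1 muscle gene were lower and 0 of either higher, while the medians were -0.28 and -0.37. The phosphoglycerate mutase gene pgam1b had 69.1, 62.3 and 77.2 CPM against 104.4, 94.7 and 122.6 CPM (-0.62, SE 0.13, adjusted p = 0.00478). The fast myosin light chain gene mylpfb had 165.5, 141.2 and 161.8 CPM against 243.8, 216.1 and 304.5 CPM (-0.71, SE 0.13, adjusted p = 0.00243), and solvent held 169.8 CPM. Both calls held without any 1 library. The calls of hk2 (0.48), pgk1 (-0.69), myl1 (-0.59) and pvalb2 (-0.68) did not. Without replicate C of 6.22 ng/L their adjusted p were 0.0859, 0.135, 0.0849 and 0.0543, and with the B library of 1.13 ng/L dropped 0.0799, 0.102, 0.0614 and 0.0525. That of hk2 was also lost on dropping the A library of 1.13 ng/L (0.0548), and that of pgk1 on dropping its C library (0.0576).

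Of 11 genes of nerve cells and glia 6 were lower, 0 higher and 5 not past the threshold, with a median of -0.59. The glial calcium-binding protein gene s100b had 39.7, 37.2 and 45.2 CPM against 64.3, 73.2 and 79.5 CPM, and solvent (70.9, 70.6 and 59.7 CPM) was level with 6.22 ng/L (-0.83, SE 0.14, adjusted p = 0.0015). The neurofilament gene nefma had 56.2 ± 0.437 against 84.3 ± 15.6 CPM (-0.59, adjusted p = 0.00483), and pcsk2, for a protease that ripens peptide hormones, differed by -0.52. The myelin gene mpz, the G protein gene gnao1b and chga made up the rest of the 6. Of the list, 5 or 6 genes were lower without any 1 library. In the list of lens and retina 4 of 12 were lower and 0 higher (median -0.34), against 7.67% and 8.51% of all features. Without replicate C of 6.22 ng/L 0 of that list passed.

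Genes of the secretory route were mixed. Of 24 genes of folding and export from the endoplasmic reticulum 8 were lower and 3 higher (median -0.15). The shares over all features were 7.67% lower and 8.51% higher. Without replicate C of 6.22 ng/L 2 of the 24 were lower and 2 higher. The chaperone partner gene sdf2l1 had 16.5 ± 1.03 against 23.7 ± 1.36 CPM (-0.52, SE 0.08, adjusted p = 0.00099), cnpy1, of the canopy family, differed by -0.87, and sec24d, of the vesicle coat, was higher (0.50, adjusted p = 0.000615). Of 14 genes of cholesterol and bile acid synthesis 4 were lower and 0 higher (median -0.13). The squalene synthase gene fdft1 had 25.3, 26.9 and 24.3 CPM against 32.1, 33.9 and 34.1 CPM (-0.39, SE 0.06, adjusted p = 0.00105), and the mevalonate pathway gene pmvk differed by -0.50 (adjusted p = 0.00232). Both calls held without any 1 library, and 2 to 5 genes of the list were lower across those fits.

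Of 21 genes of the growth hormone and insulin-like growth factor (IGF) axis 4 were higher, 1 lower and 16 not past the threshold, where 16.2% of all features were called. The lower one, LOC100136304, also goes by the binding protein symbol igfbp3 and differed by -1.25 (adjusted p = 0.0232). Without replicate C of 6.22 ng/L 0 were lower. The binding protein gene igfbp7 had 11.2, 11.9 and 10.1 CPM against 4.70, 3.20 and 2.81 CPM (1.63, SE 0.23, adjusted p = 0.000482), and igfbp5 17.8 ± 0.365 against 9.63 ± 1.09 CPM (0.88). The receptor genes igf1ra and igf2r differed by 0.61 and 0.62, and the ligand gene igf1 (-0.25) did not pass. Of 17 cell cycle genes 3 were higher and 0 lower (median 0.18), among them the topoisomerase gene top2a (138.2 ± 6.21 against 95.2 ± 9.84 CPM, 0.54, adjusted p = 0.0035). Without replicate C of 6.22 ng/L 1 cell cycle gene passed. The share called in the cell cycle list was near the 16.2% over all features.

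Of 28 genes of defence against foreign compounds, metals and oxidation 5 were higher and 4 lower, or 4 and 2 without replicate C of 6.22 ng/L. The median of this list was -0.05, so it did not move one way. Over all features 8.51% were higher and 7.67% lower. The dioxin-inducible cytochrome P450 gene cyp1a3 had 17.2, 20.7 and 12.8 CPM against 7.61, 6.59 and 4.97 CPM (1.40, SE 0.24, adjusted p = 0.00182). The peroxidase gene gpx4a had 98.2 ± 13.2 against 46.0 ± 5.39 CPM (1.10), and the efflux transporter gene abcg2 was lower (-0.65, adjusted p = 0.00678). Of 21 heat shock and stress genes 3 were higher and 1 lower, and 0 passed without replicate C of 6.22 ng/L. Of 25 proteasome genes 4 were lower, and again 0 without that library. The shares called in the heat shock and proteasome lists were near the 16.2% over all features. Of 7 epidermis genes 3 were higher, with the mucus cell gene agr2 at 91.8 ± 14.1 against 59.7 ± 3.41 CPM (0.62, adjusted p = 0.0042), and 1 to 3 passed without any 1 library.

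Of 16 genes of adaptive immunity 2 were higher, rag1 and the T cell signalling gene themis (17.1 ± 1.56 against 9.02 ± 2.86 CPM, 0.92, adjusted p = 0.00523). In the edgeR fit to the 6 libraries alone 0 of the 16 passed, with adjusted p of 0.0543 for themis and 0.115 for rag1. Of 12 genes of innate immunity 1 was higher and 1 lower, and 0 passed without replicate C of 6.22 ng/L. Of 21 genes of gill and kidney the water channel gene aqp3a was higher (0.61, adjusted p = 0.0272) and bsnd lower. In the lists of immunity and of gill and kidney, the shares called were near or below the 16.2% over all features. The call of aqp3a was lost when the A (0.074) or B (0.114) library of 1.13 ng/L, or the A (0.0513), B (0.0836) or C (0.0916) library of 6.22 ng/L, was dropped. No gene passed among 9 of red blood cells, 9 of pancreas and gut, 7 of vessels and heart and 5 of the thyroid axis in edgeR. At an unadjusted p under 0.05, and also by DESeq2, 1 gene of vessels and heart passed and 0 of the others.

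**Figure D4:**
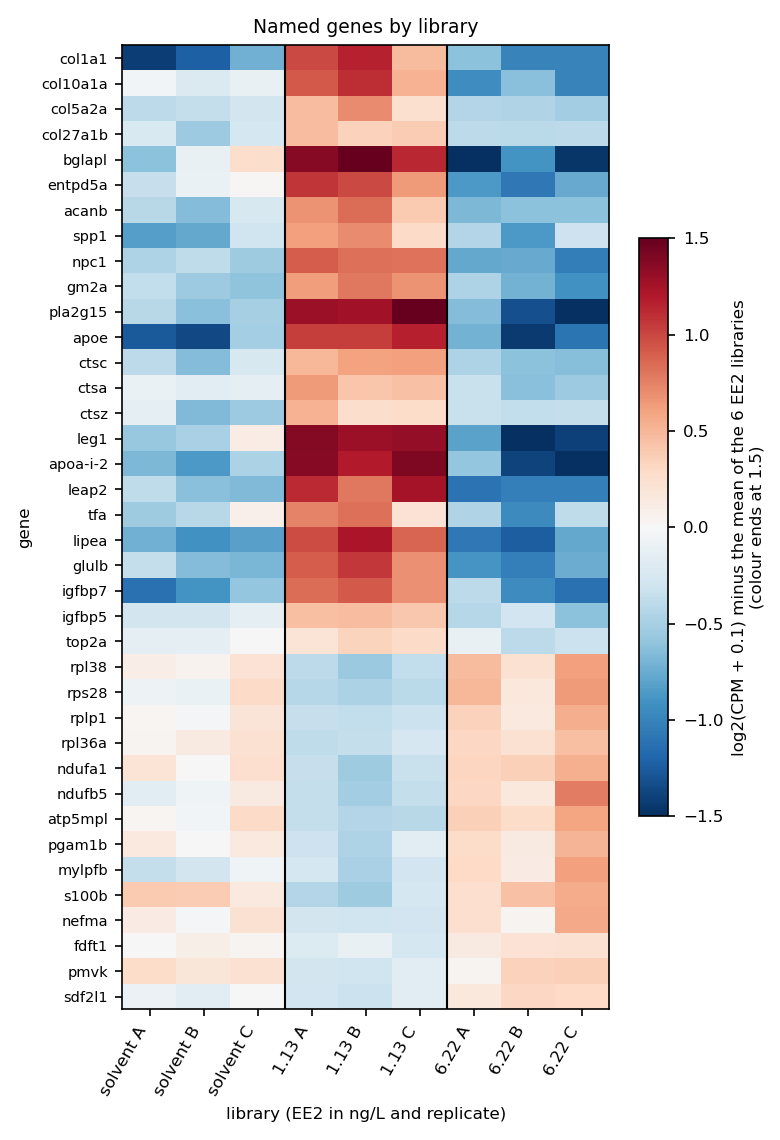
Log2(CPM + 0.1) of 38 named genes in each library, relative to the mean of the 6 EE2 libraries; columns are solvent, 1.13 and 6.22 ng/L, replicates A to C, red is above and blue below that mean. The libraries of 1.13 ng/L are red from col1a1 to top2a and blue from rpl38 to sdf2l1, and the solvent libraries mostly have the colour of 6.22 ng/L in weaker form.

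The solvent libraries place these differences. Of the 3999 features called higher at 1.13 ng/L the solvent mean was nearer to that of 6.22 ng/L for 3356, and it lay between both means for 3258, above both for 45 and below both for 696. Of the 3606 called lower, it was nearer to 6.22 ng/L for 2723, and it lay between for 3166, above both for 388 and below both for 52. For most calls solvent thus stood on the side of the higher concentration, and for zp2.3, vtg3, miox and fd6d on the side of the lower. The effective lengths of the solvent libraries were computed with 1 gap to the transcript length per library, whereas those of 1.13 and 6.22 ng/L vary by transcript, so solvent levels were made in another way. Solvent was also nearer to 6.22 than to 1.13 ng/L in library totals and in the median gap between length and effective length. That gap was 179.3 to 194.8 bases in solvent, 199.6 to 208.5 at 6.22 ng/L and 234.4 to 247.4 at 1.13 ng/L. The part of these traits in the position of solvent was not tested, and it cannot be told apart from concentration.

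Calls also went with the kind and length of a feature. Of single mRNAs 9.01% were higher and 4.98% lower at 1.13 ng/L, of single non-coding transcripts 2.72% and 8.64%, and of gene sums with a symbol 9.04% and 10.6%. The median log2 difference was -0.10 for features of 500 to 1000 bases, where 5.37% were higher and 14.8% lower. It was 0.16 at 8000 bases and over, where 14.4% were higher and 3.45% lower. The median gap between length and effective length was 234.4 to 247.4 bases in the libraries of 1.13 ng/L and 199.6 to 208.5 bases at 6.22 ng/L, and library totals differed as given above. Depth, gap and concentration go together in these 6 libraries and cannot be told apart.

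**Figure D5:**
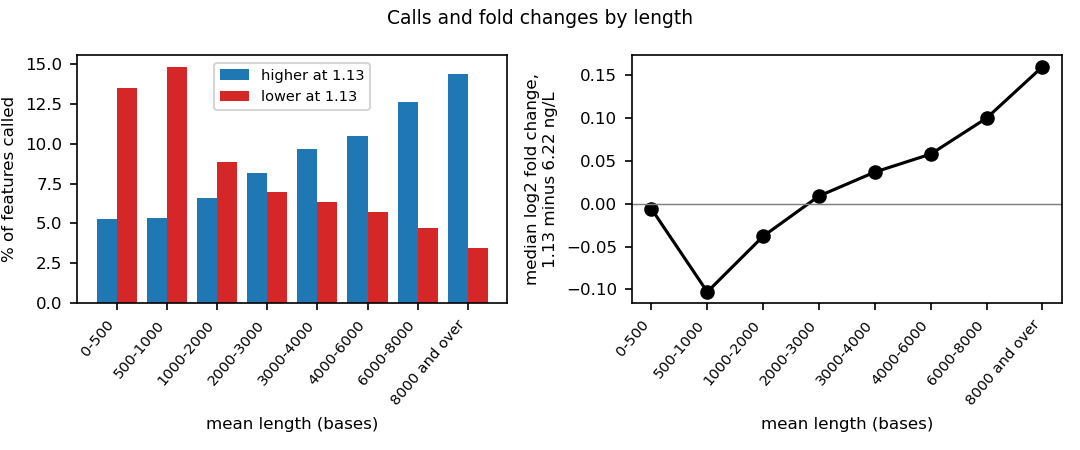
Left, the percentage of features called higher (blue) and lower (red) at 1.13 ng/L by mean transcript length in bases; right, the median log2 fold change (1.13 minus 6.22 ng/L) in the same classes. Short features were more often lower (14.8% at 500 to 1000 bases) and long ones more often higher (14.4% at 8000 and over).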

How the data were processed

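The submitters' processing notes name Trimmomatic 0.38, kallisto and DESeq2, with no role given; other versions and the genome build are not given in the sources used here. Each deposited table lists 79244 RefSeq transcripts with, per the file headers, the authors' estimated counts, TPM, length and effective length. Estimated counts were tested. The deposited TPM values served only to set levels of different genes side by side within a group. Of the transcripts 42410 (53.5%) matched the RefSeq table of assembly GCF_013265735.2 by accession without its version, and 1083 matched in version too. That table gave the gene names and set which transcripts were summed by gene. The other 36834 transcripts stayed single, so a gene sum may lack some transcripts of its gene. Counts were rounded, and 61973 features resulted.

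Low features were removed by filterByExpr, TMM gave the library scaling, and edgeR 4.0.16 (R 4.3.3) fitted the rest in 1 model of all 18 libraries with 12 residual degrees of freedom. CPM carry TMM factors, whereas ratios and floors use reads over library totals and cover counting error only, at 95%.

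Named were, among called features above a floor of 1 CPM on average and with no overlap, the 12 (with a symbol) and 5 (without) with the largest difference each way, all egg protein and receptor genes, and up to 4 called members of every other list by adjusted p; genes whose symbol alone is given beside a count are members of that list. The comparison and the 31 lists were chosen with earlier results of these data known. List members were matched by symbol or its pattern, also with a, b, l, la or lb added. A list can thus hold genes of other functions, as chga among the egg proteins. The same may hold for rhoa (lens and retina), manbal (lysosome) and rpl7l1 (ribosomal proteins). Features beyond 4 on the log2 scale and the genes outside the lists were added after their values were seen. The scripts were tested on simulated data, in which 67 genes were changed 1.5-fold, 67 2-fold and 66 4-fold. Of these 13.4%, 40.3% and 72.7% were recovered, and 4 of 88 calls were of unchanged genes. Sequences were not used here.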

Additional observations from a re-analysis of the deposited data

How the results depend on the processing

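The total of 7605 calls (3999 higher, 3606 lower) was 7701 with RLE size factors, 9917 with DESeq2 1.42.0, 6637 without a filter on low counts, 7218 with effective length offsets, 7871 with the length trend removed and 5237 over 59811 single transcripts. A fit to the 6 libraries alone gave 3797 (2242 higher, 1555 lower), with fewer degrees of freedom. Leaving out each library in turn gave 3811 to 7530 calls, 2086 to 3880 higher and 1725 to 3664 lower. The lowest came without replicate C of 6.22 ng/L. No call turned its direction in any of these fits over features. Of the called features picked for naming, 141 in all, 90 kept their call without any 1 library and 82 under every alternative, and 0 turned. In the fit to the 6 libraries alone 46 of the 141 lost their call, among them igf2r, cnpy1, pcsk2, cyp2k4, kt3k and zgc:113279. Only esr2a, which was not called, changed sign, with values from -0.077 to 0.201 over the fits that left out 1 library (-0.036 and -0.031 without replicates A and C of 1.13 ng/L). The replicate letters did not pair the libraries: deviations from the group means correlated by 0.02 for A, -0.011 for B and 0.03 for C. With the letters as a replicate block 7009 features passed (3707 higher, 3302 lower). Depth limits genes under about 1 CPM.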

Other observations

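Several genes of brain and hormone cells outside the lists were lower at 1.13 than at 6.22 ng/L. They were picked after their values were seen, so no count of them is support. The genes nkx2.1c, nkx2.2a and nkx2.4a encode homeobox factors of the ventral brain, and nkx2.2a had 1.49, 1.40 and 1.59 CPM against 3.11, 2.89 and 2.95 CPM, with 3.09 CPM in solvent (-0.99, SE 0.19, adjusted p = 0.00359 in edgeR). The neuropeptide gene cort, for cortistatin, had 1.96 ± 0.454 against 4.20 ± 1.31 CPM (-1.10, adjusted p = 0.00918), and its call ended without replicate C of 6.22 ng/L (0.0571). The call of nkx2.1c (-1.22, adjusted p = 0.0164) ended without replicate B of 1.13 ng/L (0.0691) or C of 6.22 ng/L (0.0715). That of nkx2.4a (-1.06, adjusted p = 0.0176) was lost when the A library of 1.13 ng/L (0.0724), or the B (0.0555) or C (0.0572) library of 6.22 ng/L, was dropped.

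The genes glulb and lipea, likewise picked after their values were seen, were higher at 1.13 ng/L. The glutamine synthetase gene glulb had 40.0, 44.2 and 34.3 CPM against 11.4, 10.4 and 12.6 CPM, with 14.3 CPM in solvent (1.79, SE 0.14, adjusted p = 5.59e-06). The hormone-sensitive lipase gene lipea, which frees stored fat, had 8.22, 9.80 and 7.68 CPM against 1.92, 1.69 and 2.38 CPM, with 2.31 CPM in solvent (2.1, SE 0.17, adjusted p = 6.8e-06). For both genes the groups were far apart, and the calls held without any 1 library.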
